A study of Mus musculus with 6 samples.

Results

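Myelin is built from a small set of proteins, and the 9 genes examined here encode sheath and sheath-associated ones: Mbp, Mog, Mag, Mobp, Cnp, Cldn11, Opalin, Ermn and Mal. They were chosen by symbol from the 18211 genes for which the deposited table gives values, with earlier results of these data known. In preparations of oligodendrocyte precursor cells (OPCs) from DISC1-Δ3 mice, 5 of the 9 genes were lower than in those from wildtype mice. None was higher, and 4 did not pass the test or its expression filter. Of all tested genes, 19.5% were lower and 20.4% higher. The preparations also held RNA of other cells, with microglial markers in sum far above OPC markers. The fitted fall was 31% for Mag, which encodes a protein of the inner sheath surface, and 10.5% for Mbp, the most abundant member. The call for Mbp was lost with another scaling of the libraries.

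RNA was sequenced from 3 wildtype and 3 DISC1-Δ3 libraries of C57BL/6 mice at postnatal day 7. DISC1-Δ3 mice (NG2-CreERTM: DISC1 exon3 fl/+) carry one floxed exon 3 of Disc1, a gene linked to schizophrenia, and a tamoxifen-inducible Cre driven by the promoter of NG2, a proteoglycan of OPCs and of pericytes. Both groups received tamoxifen by gavage for 4 days, from P4 to P7, and the study describes its wildtype mice as free of CreERT, so that Cre and the deletion cannot be told apart. OPCs were taken by immunopanning on an antibody to PDGFRα and were lysed without culture. The labels do not say whether replicates came from separate animals, and p-values therefore measure the spread between these libraries, which may be technical.

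In the central nervous system, myelin is made by oligodendrocytes, which arise from OPCs and pass through a premyelinating stage before they wrap axons. The sheath has compact layers, in which the cytoplasmic faces of the membrane are zipped together, and non-compact channels and loops that keep cytoplasm. The transcription factors SOX10 and MYRF bind and activate many myelin genes, and myelin transcripts mark cells that have left the precursor state. In rodents the first week after birth comes at the start of myelination in the forebrain.

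The libraries held 13716619 to 16417219 reads assigned to genes. Disc1, the targeted gene (gene ID 244667), had RPKM (reads scaled by transcript length and library total) of 3.51, 3.34 and 3.81 in wildtype libraries and of 2.86, 2.44 and 2.85 in DISC1-Δ3 libraries, with replicates 1 to 3 in this order here and below. These are values per gene and do not resolve exon 3. DISC1-Δ3 replicate 3 stood apart from its group: the second principal component placed it at -14.2, against 7.30 and 6.79 for the other two. OPC markers were present, beside microglial ones with a far higher sum. In wildtype libraries 14 microglia markers summed to 16820 to 17150 RPKM, and 12 OPC markers to 557.8 to 579.2. Pdgfra, the antigen of the panning, had 17.2 to 18.1 RPKM in wildtype and 25.0 to 26.8 in DISC1-Δ3 libraries, whereas C1qa, a complement gene of microglia, had 3204 to 3454 and 2150 to 2262. Single markers varied: Ptprc, also on the microglia list, had 11.3 to 12.7 RPKM in wildtype libraries, below Pdgfra.

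The genes lie on separate chromosomes, except Ermn and Mal. In the GENCODE annotation of GRCm38, Mag spans positions 30899176 to 30914873 of chromosome 7 (minus strand), Mog 37010743 to 37023398 of chromosome 17 (minus), Cnp 100574904 to 100591729 of chromosome 11 (plus) and Cldn11 31149920 to 31164324 of chromosome 3 (plus). Mobp spans 120149707 to 120181484 of chromosome 9 (plus), Opalin 41061710 to 41077113 of chromosome 19 (minus), Ermn 58045113 to 58052864 of chromosome 2 (minus) and Mal 127633226 to 127656695 of chromosome 2 (minus). Exons of Cnp overlap those of Dnajc7 on the opposite strand, exons of Ermn those of Galnt5 on the opposite strand, and exons of Mobp those of Gm38642 on the same strand. No marking of strand is described for these libraries, and reads from the shared stretches cannot be told apart.

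The promoters of Mag, Mog and Cnp, which fell, are shown because each holds the core letters bound by MYRF, and that of Mobp, which did not pass the test, because it holds the SOX core 6 times. All are from the RefSeq promoter table of GRCm38.p6, read 5′ to 3′ on the strand of the gene, with cores of both kinds in capitals on either strand. Those of Mag and Mog end at the RefSeq start site, and those of Cnp and Mobp 35 bases before it. They cover chr7:30914923-30915172 (minus) for the most upstream of 3 Mag start sites, chr17:37023399-37023648 (minus) for Mog, chr11:100574689-100574903 (plus) for Cnp and chr9:120149492-120149706 (plus) for Mobp.
Mag: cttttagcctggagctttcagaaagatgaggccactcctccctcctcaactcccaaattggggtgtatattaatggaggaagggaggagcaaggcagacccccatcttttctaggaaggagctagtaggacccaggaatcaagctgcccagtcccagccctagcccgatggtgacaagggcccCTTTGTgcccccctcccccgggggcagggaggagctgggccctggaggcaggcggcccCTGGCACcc
Mog: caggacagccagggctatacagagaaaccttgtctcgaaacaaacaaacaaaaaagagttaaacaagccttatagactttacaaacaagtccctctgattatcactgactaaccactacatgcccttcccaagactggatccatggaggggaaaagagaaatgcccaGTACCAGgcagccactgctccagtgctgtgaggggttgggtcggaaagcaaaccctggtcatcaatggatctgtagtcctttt
Cnp: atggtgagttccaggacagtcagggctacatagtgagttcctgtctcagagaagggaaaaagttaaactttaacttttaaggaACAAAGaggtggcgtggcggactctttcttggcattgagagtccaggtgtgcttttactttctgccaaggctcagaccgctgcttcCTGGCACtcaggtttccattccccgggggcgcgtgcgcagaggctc
Mobp: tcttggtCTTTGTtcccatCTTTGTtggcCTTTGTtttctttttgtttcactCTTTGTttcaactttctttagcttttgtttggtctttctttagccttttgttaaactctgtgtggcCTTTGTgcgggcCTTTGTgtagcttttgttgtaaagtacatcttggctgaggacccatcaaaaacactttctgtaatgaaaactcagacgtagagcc

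The MYRF core was searched as CTGGCAC or CTGGTAC and the SOX core as ACAAAG or ACAATG, on both strands of the 250 bases before each start site, and no searched core contains another. Promoter windows were found for 8 of the 9 genes, all but Mbp. The MYRF core was in 3 of the 8 genes, which is 4 of their 10 windows, and in 5.93% of all 32851 windows. Overlapping Mag windows share the same site and were counted separately. In the windows shown it lay at positions -9 to -3 from the RefSeq start site for Mag, -83 to -77 for Mog and -81 to -75 for Cnp. The SOX core was in 5 of the 8 genes (Mag, Mobp, Cnp, Opalin and Ermn), which is 6 of their 10 windows, and in 25.2% of all windows. Cldn11, which fell as well, and Mal, which did not pass the test, held neither core in these windows. A bHLH E-box (CAGCTG or CATCTG) was found for Opalin and a GC box (GGGCGG) for Cnp, in the stretch not printed. Each was in 1 of the 10 windows, against 25.5% and 32.7% of all windows. No member window held the TCF/LEF core ATCAAAG (3.21% of all windows) or a TATA box, TATAAA (12.4%). These matches describe letters, and binding was not measured.

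**Figure D1:**
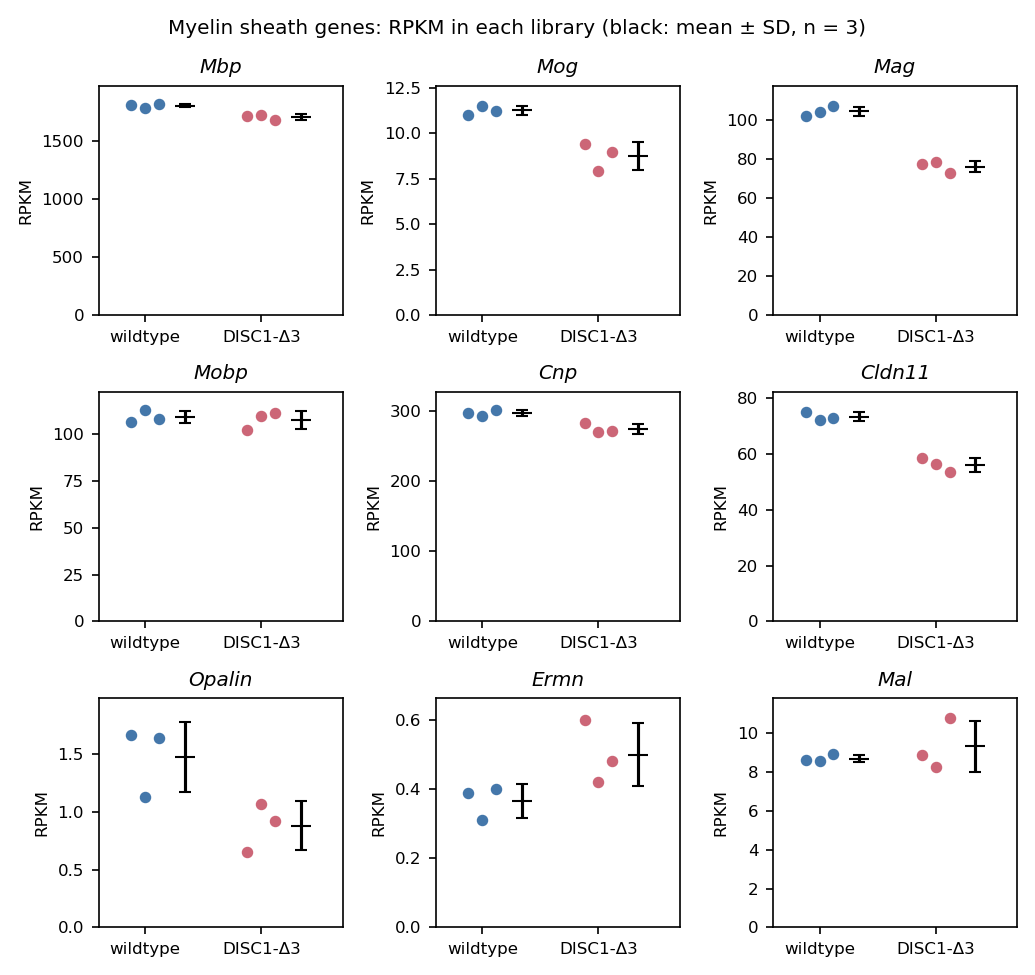
RPKM of each of the 9 genes (vertical axes, each from 0) in the 3 wildtype and 3 DISC1-Δ3 libraries, shown as points with the mean ± SD beside them. Mag, Cldn11, Mog, Cnp, Mbp and Opalin were lower in every DISC1-Δ3 library than in any wildtype library, Mobp and Mal overlapped, and Ermn was higher in every DISC1-Δ3 library.

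Compact myelin was represented by Mbp and Mobp. Mbp (gene ID 17196), which encodes the basic protein that draws the cytoplasmic membrane faces together, had 1815, 1789.7 and 1817 RPKM in the wildtype against 1720.7, 1728 and 1679.9 in the DISC1-Δ3 libraries. The groups did not overlap, and Mbp ranked 33 of 18211 genes by its wildtype mean. The means were 1807 ± 15.3 and 1710 ± 25.9 RPKM (SD, n = 3 each). The fitted log2 fold change of Mbp was -0.16 (SE 0.041, Benjamini-Hochberg adjusted p = 0.00435 by the quasi-likelihood test of edgeR). Fold changes from edgeR, here and below, are of counts under TMM scaling, edgeR's trimmed mean of M-values. RPKM are scaled by library totals instead, so ratios of RPKM between the groups differ from the fitted changes. The fall of Mbp rested on the scaling between libraries. With scaling by library totals in place of TMM, it was -0.08 (adjusted p = 0.0737, edgeR). It missed the threshold in both limma fits to RPKM too (-0.08 each, adjusted p = 0.0909 and 0.0837). Transcripts of the Golli unit of the same locus, which other cells also express, may be counted in the same gene, and values per gene do not resolve them.

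Fewer myelin-forming cells and less RNA per cell cannot be told apart in these bulk samples, for Mbp and for each gene below. Over all 13792 tested genes, 19.5% were lower and 20.4% higher in DISC1-Δ3 libraries at an adjusted p under 0.05. Against that background, 5 of the 8 tested members were lower and 0 higher. At an unadjusted p under 0.05, 7 were lower and 0 higher, beside 23.2% and 24.7% of all tested genes. DESeq2 and limma, at an adjusted p under 0.05, also called 0 higher. Of the 13792 tested genes, DESeq2 called 2229 higher, and the limma fits 3983 and 3965. The median log2 fold change of the 8 was -0.32, beside 0.0075 for all tested genes. By RPKM alone, 6 members were lower without overlap between the groups, as were 16.1% of tested genes, and 1, the untested Ermn, was higher, as were 35.9% of tested genes.

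Mobp (gene ID 17433), whose product is a small basic protein of the cytoplasmic face of compact myelin, had 106, 113 and 108 RPKM in the wildtype against 102, 109.5 and 111 in the DISC1-Δ3 libraries. The groups overlapped, and their means of 109 ± 3.38 and 107.6 ± 4.82 RPKM (SD, n = 3 each) were closer than the spread within them. The fitted log2 fold change was -0.09 (95% confidence interval -0.186 to -0.00127, adjusted p = 0.10 from edgeR). Without DISC1-Δ3 replicate 3, which stood apart, Mobp passed the threshold at -0.11 (adjusted p = 0.0342).

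Cnp (gene ID 12799), an early and abundant gene of the lineage whose product, a cyclic nucleotide phosphodiesterase, keeps cytoplasmic channels of the sheath open, was second in level among the 9. It had 297.8, 293.5 and 301.7 RPKM in the wildtype against 283.7, 270.7 and 271.8 in the DISC1-Δ3 libraries. Every DISC1-Δ3 library was below every wildtype library. The change was small, with means of 297.6 ± 4.09 and 275.4 ± 7.22 RPKM (SD, n = 3 each). The log2 fold change fitted under TMM scaling was -0.20 (SE 0.041, adjusted p = 0.000921, edgeR). On library totals it was -0.12 and still passed (adjusted p = 0.0186).

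The surface and junction genes Mag, Mog and Cldn11 had larger fitted changes. Mag (gene ID 17136), a sialic acid-binding adhesion protein of the innermost membrane that faces the axon, had 102, 104 and 107 RPKM in the wildtype against 77.4, 78.2 and 72.6 in the DISC1-Δ3 libraries. The gap between the groups was several times the spread within them, at 104 ± 2.41 against 76.1 ± 3.01 RPKM (SD, n = 3 each). Its log2 fold change was -0.54 (95% confidence interval -0.635 to -0.437, adjusted p = 6.07e-08 from edgeR), and each library left out in turn gave -0.58 to -0.50.

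Cldn11 (gene ID 18417), the claudin that forms the tight junctions between myelin layers, had 74.9, 72.1 and 72.9 RPKM in the wildtype against 58.3, 56.2 and 53.6 in the DISC1-Δ3 libraries. The groups did not overlap, and the mean went from 73.3 ± 1.47 to 56.0 ± 2.40 RPKM (SD, n = 3 each). The log2 fold change was -0.47 (SE 0.051, adjusted p = 8.72e-07 from edgeR).

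Mog (gene ID 17441), an immunoglobulin-like protein of the outermost surface that appears late in maturation, was expressed well below Mag and Cldn11. Its RPKM were 11.0, 11.5 and 11.3 in the wildtype against 9.42, 7.92 and 8.98 in the DISC1-Δ3 libraries, from 200 to 295 reads a library. Every DISC1-Δ3 library was below every wildtype library, and the DISC1-Δ3 values spread more (SD 0.771 against 0.230, n = 3 each). The log2 fold change was -0.45 (SE 0.097, adjusted p = 0.00134 from edgeR).

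**Figure D2:**
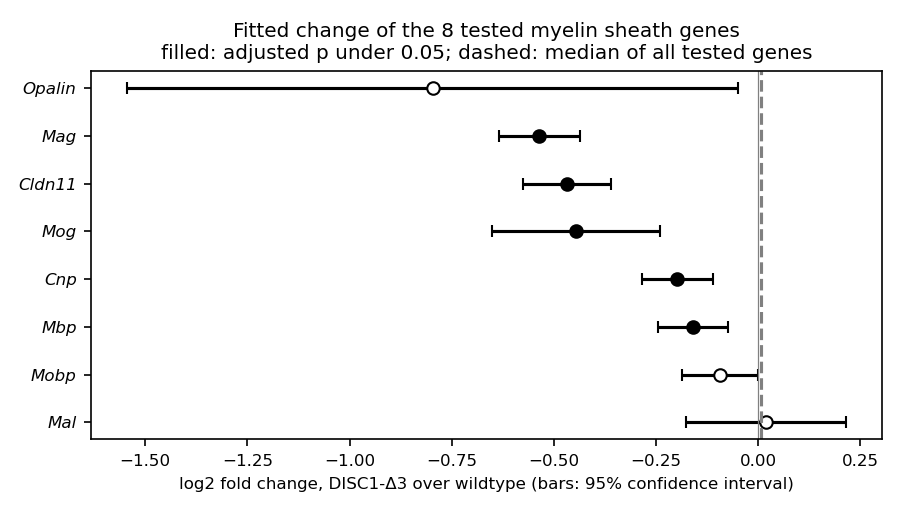
Fitted log2 fold change of DISC1-Δ3 over wildtype (horizontal axis) for the 8 tested genes, with 95% confidence intervals. Filled points passed an adjusted p of 0.05, and the dashed line marks the median of all tested genes, 0.0075. Mag, Cldn11 and Mog lie between -0.54 and -0.45, Cnp and Mbp between -0.20 and -0.16, and the interval of Opalin is the widest, from -1.54 to -0.0495.

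Opalin and Ermn had few reads. Opalin (gene ID 226115), which encodes a membrane glycoprotein of the central nervous system sheath, had 1.67, 1.13 and 1.64 RPKM in the wildtype against 0.65, 1.07 and 0.92 in the DISC1-Δ3 libraries. Those values came from 17, 14 and 20 against 7, 13 and 11 reads. The groups did not overlap but were parted by a narrow gap, and at these counts the log2 fold change of -0.80 (95% confidence interval -1.54 to -0.0495) did not pass the threshold (adjusted p = 0.0815 from edgeR). It passed in limma fits to log2(RPKM + 1) and log2(RPKM + 0.1), at -0.40 and -0.69 (adjusted p = 0.0227 and 0.0270).

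Ermn (gene ID 77767), an actin-binding cytoskeletal protein of mature oligodendrocytes, had higher RPKM in DISC1-Δ3 libraries, but at few reads. It had 0.39, 0.31 and 0.40 RPKM in the wildtype against 0.60, 0.42 and 0.48 in the DISC1-Δ3 libraries, from 17 to 22 and from 23 to 29 reads. Every DISC1-Δ3 value was above every wildtype value, by a narrow gap of 0.42 against 0.40 RPKM. The gene reached an RPKM of 0.5 in a single library and failed the filter of 0.5 in 3 libraries. In a fit without the filter its log2 fold change was 0.37 (95% confidence interval -0.253 to 0.986, adjusted p = 0.404 from edgeR), so that a difference was not detectable at this depth.

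Mal (gene ID 17153), a proteolipid of lipid rafts that sorts membrane to myelin and is also made by other cells, had 8.59, 8.56 and 8.89 RPKM in the wildtype against 8.88, 8.25 and 10.8 in the DISC1-Δ3 libraries. The groups overlapped, with replicate 3 the highest. Its log2 fold change was 0.02 (95% confidence interval -0.178 to 0.215, adjusted p = 0.895 from edgeR), and -0.10 without that library (adjusted p = 0.358). No direction is therefore given for Mal.

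The members differed by more than 3 orders of magnitude in level. Mbp made up 74.8% to 75.1% of their summed RPKM in wildtype and 76.0% to 76.4% in DISC1-Δ3 libraries. The sum went from between 2393 and 2429 RPKM to between 2210 and 2262. Without Mbp it went from between 602.6 and 611.8 to between 530.3 and 541.1 RPKM. In wildtype the order of means was Mbp, Cnp, Mobp, Mag, Cldn11, Mog, Mal, Opalin and Ermn. The wildtype ranges of Mobp and Mag overlapped, although Mobp was above Mag within every library of both groups, with a ratio of Mag to Mobp of 0.921 to 0.987 in wildtype and 0.653 to 0.757 in DISC1-Δ3 libraries. Mog was 1.27 to 1.34 times Mal in the wildtype libraries, and 1.06, 0.96 and 0.833 times Mal in DISC1-Δ3 replicates 1 to 3. It thus stayed above Mal in replicate 1 and was farthest below it in replicate 3, the library that stood apart. The ratio of Mag to Cldn11 overlapped between the groups, at 1.36 to 1.47 and 1.33 to 1.39.

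Set against Mbp in the same library, a measure that needs no scaling between libraries, the members differed in whether the groups overlapped. Mag was 5.77 ± 0.131% of Mbp in wildtype and 4.45 ± 0.109% in DISC1-Δ3 libraries (SD, n = 3 each), Cldn11 was 4.06 ± 0.0633% and 3.28 ± 0.103%, and Mog was 0.623 ± 0.0175% and 0.513 ± 0.0482%. For each the groups did not overlap. Their ratios fell by 22.9%, 19.2% and 17.6%. The groups overlapped for Cnp, at 16.5 ± 0.115% and 16.1 ± 0.415%, and for Mobp, at 6.04 ± 0.237% and 6.30 ± 0.343%. In 2-sided exact permutation tests of the 8 ratios computed, 5 had p = 0.1, the smallest that 3 against 3 libraries allow (0.16 after Benjamini-Hochberg adjustment). These were Mag, Cldn11, Mog, Opalin and Ermn, of which Ermn alone was higher, while the exact test gave p = 0.3 for Cnp, Mobp and Mal. Over the other 13791 tested genes, 11.1% had a ratio to Mbp that was lower without overlap and 46.1% one that was higher. A test of this size cannot pass 0.05, and the ratios do not show which gene was constant.

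**Figure D3:**
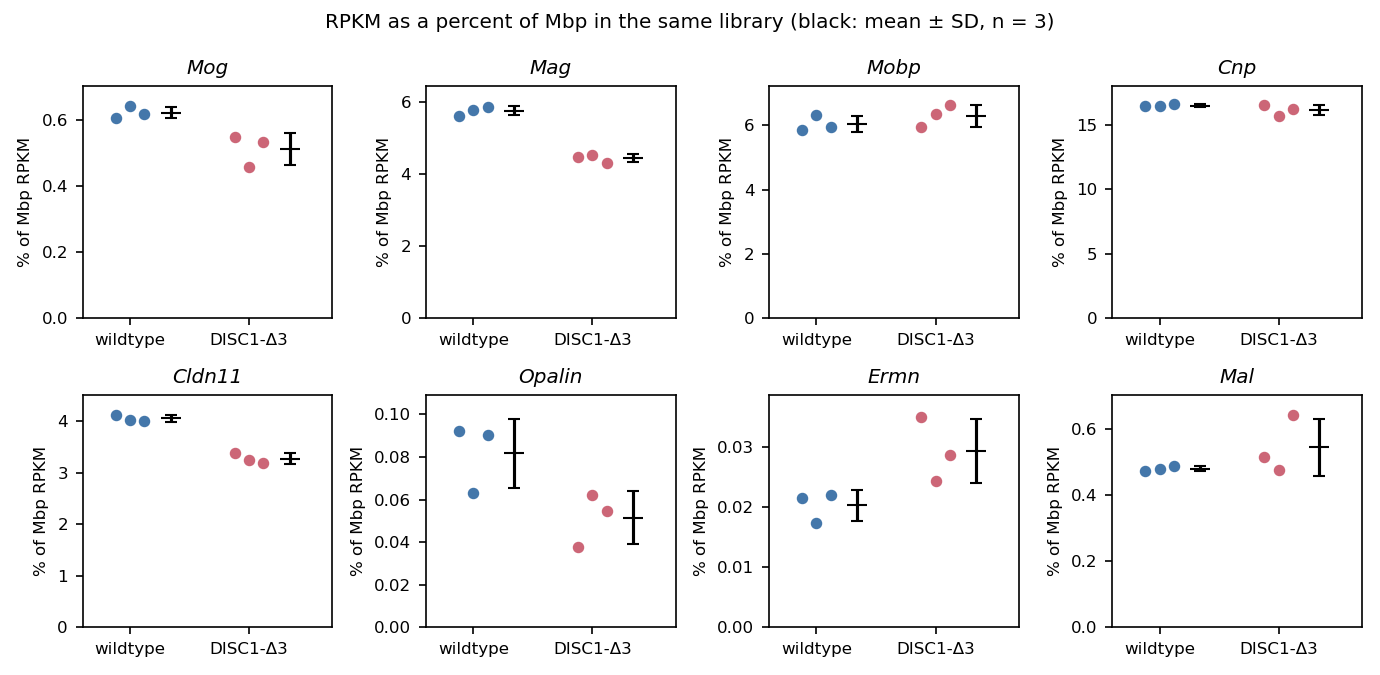
RPKM of the other 8 genes as a percent of Mbp in the same library (vertical axes from 0), by group, with points for libraries and the mean ± SD beside them. Mag went from 5.77% to 4.45% and Cldn11 from 4.06% to 3.28% without overlap, whereas Cnp lay at 16.5% and 16.1% with overlap.

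Another list held 23 genes of myelin and the paranode, the stretch where the sheath ends on the axon. Of its 22 tested genes 8 were lower and 4 higher, beside 19.5% and 20.4% of all tested genes. The median log2 fold change was -0.08. Gjc3, a glial connexin, Trf, the iron carrier transferrin, and Nfasc, the paranode adhesion protein neurofascin, fell by 0.73, 0.71 and 0.60 on the log2 scale. Gjb1, a connexin of non-compact myelin, rose by 0.78, and Cntn2, Car2 and Pllp rose by 0.20 to 0.25. The higher count moved with the setting: it was 2 without wildtype replicate 3 or without DISC1-Δ3 replicate 2, and 8, with 6 lower, on library totals. Over all 13792 tested genes, 2807 were higher in the main fit. That number was 2250 and 2149 in these omissions and 4126 on library totals, where 13.3% were lower. The median of the list turned to 0.0031 on library totals and to 0.02 in the limma fits.

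Genes for myelin lipids, which are made alongside the proteins, were examined next. Of 10 tested, 3 were lower (Ugt8a, Elovl1 and Gltp) and 0 higher, beside 19.5% and 20.4% of all tested genes. The median was -0.11. Ugt8a, the enzyme that makes galactosylceramide, fell by 0.53 on the log2 scale (adjusted p = 2.47e-05, edgeR), from between 10.1 and 11.0 RPKM to between 7.26 and 8.42. On library totals, in the limma fits and without wildtype replicate 2, 1 of the 10 was lower. The shares of all tested genes lower in these settings were 13.3%, 12.9% and 12.8% (limma), and 15.6%.

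A list of 17 regulators of myelin genes mixes activators and inhibitors and so has no single direction. Of these, 5 were higher and 3 lower, with a median of 0.10, beside 20.4% and 19.5% of all tested genes. Myrf, the factor that drives myelin genes in maturing cells, had 18.6, 18.0 and 17.9 RPKM in the wildtype against 14.03, 14.22 and 13.37 in the DISC1-Δ3 libraries, a log2 fold change of -0.47 (adjusted p = 1.21e-06, edgeR). Sox10, a factor of the whole lineage, had 32.8 to 35.6 and 37.0 to 41.6 RPKM, a log2 fold change of 0.11 (adjusted p = 0.15). The ratio of Myrf to Sox10 was 0.504 to 0.568 in wildtype and 0.336 to 0.380 in DISC1-Δ3 libraries. Per unit of Sox10, 7 of the 9 members (all but Ermn and Mal) were lower in every DISC1-Δ3 than in any wildtype library. Sox10 itself was higher in each DISC1-Δ3 library, and 29.4% of the other 13791 tested genes were lower per unit of Sox10 in the same way (12.9% higher). Mobp, whose RPKM overlapped, was among the 7, at 3.05 to 3.24 times Sox10 in wildtype and 2.63 to 2.80 times in DISC1-Δ3 libraries. Nkx2-2, Olig2, Nkx6-2, Olig1 and Sox8 rose by 0.69, 0.53, 0.38, 0.31 and 0.24 on the log2 scale. Id2, an inhibitor of differentiation, and Zfp488, a zinc-finger factor of the lineage, fell by 0.43 and 0.36, with Zfp488 at 22.9 RPKM in DISC1-Δ3 replicate 3 and 15.58 and 16.02 in the others. Without DISC1-Δ3 replicate 3, 5 of the 17 were lower, beside 24% of all tested genes. On library totals 8 were higher, beside 4126 of all 13792 tested genes.

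Markers of earlier stages of the lineage were counted in the same fit. Of 12 OPC markers 8 were higher and 1 lower, with a median of 0.47, beside 20.4% and 19.5% of all tested genes. The lower one was Ptprz1, at -0.35 on the log2 scale. Sox10, Olig1 and Olig2 stand on this list and on that of regulators. The summed RPKM of the 12 was 557.8 to 579.2 in wildtype and 721 to 749.4 in DISC1-Δ3 libraries. Olig1 was its largest part, at means of 251.5 and 328.8 RPKM. Of 10 premyelinating markers 3 were lower (Enpp6, Itpr2 and Tns3) and 2 higher (Gpr17, and Bmp4 by 0.995 on the log2 scale). Their median was -0.01, and 19.5% of all tested genes were lower and 20.4% higher. Enpp6, a mark of newly forming oligodendrocytes, fell by 0.88 on the log2 scale, from between 13.8 and 15.1 to between 8.04 and 9.10 RPKM. Gpr17, a receptor of the stage before myelination that also stands on the OPC list, rose by 0.68, from between 60.3 and 63.3 to between 100.3 and 107.5 RPKM.

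**Figure D4:**
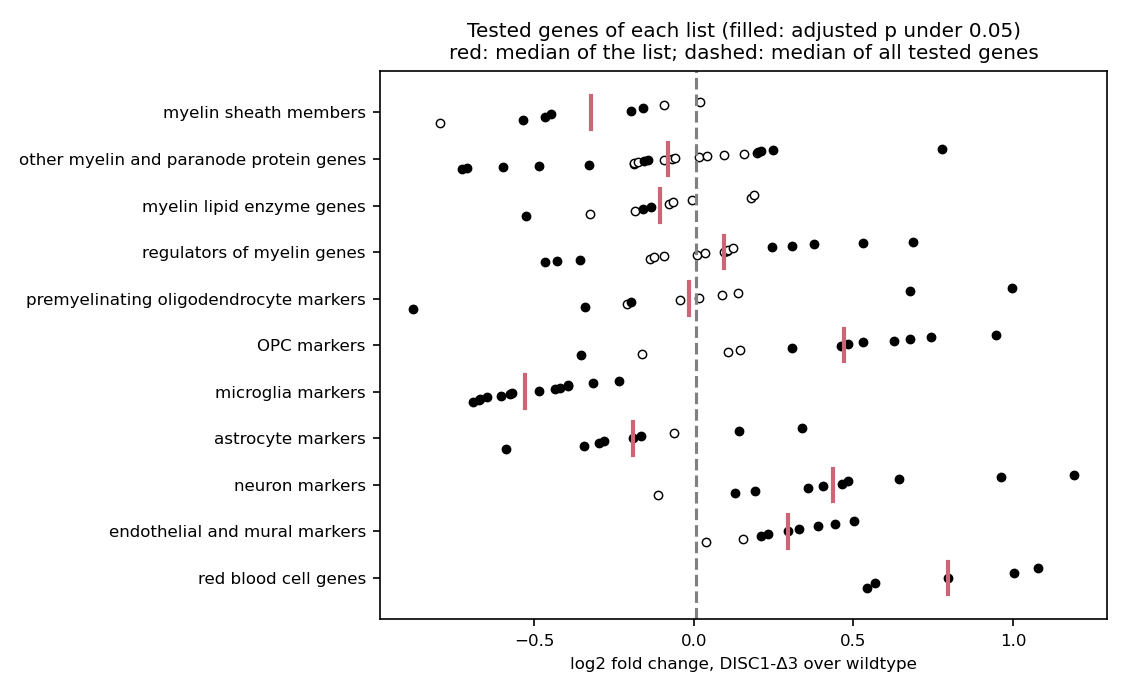
Fitted log2 fold change of DISC1-Δ3 over wildtype (horizontal axis) for each tested gene of the members and of 10 other lists. Filled points passed an adjusted p of 0.05, red bars are list medians and the dashed line is the median of all tested genes. The members lie at a median of -0.32, between microglia markers at -0.53 and OPC markers at 0.47.

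Markers of other cells moved with genotype as well, and their part in the members' changes was not tested. Over all tested genes, 19.5% were lower and 20.4% higher. All 14 microglia markers were lower, with summed RPKM of 16820 to 17150 in wildtype and 11830 to 12280 in DISC1-Δ3 libraries. Red blood cell genes were higher for 5 of 5, at 9343 to 9567 and 16650 to 18150 RPKM. Neuron markers were higher for 9 of 10, at 356.5 to 358.6 and 429.6 to 451.6 RPKM, and endothelial and mural markers for 7 of 9, at 208.5 to 217.4 and 284.4 to 291.2. Astrocyte markers were lower for 6 and higher for 2 of 9, at 1989 to 2030 and 1916 to 1934 RPKM. Schwann cells, which make peripheral myelin and share Mbp and Mag, were examined by 6 markers. Pmp2, a fatty acid-binding protein of peripheral myelin, was at 0 in all but 1 library, and the 3 markers tested were Sox10, Prx and Egr2 (adjusted p = 0.15, 0.669 and 0.0524).

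Among 13784 tested genes outside the 9, those whose levels most resembled the mean profile of the tested members over the 6 libraries were Gm45988 (Pearson r = 0.9992), Arhgap22 (0.9976), Dhx58 (0.9976), Arhgap25 (0.9973) and Lifr (0.997). The 6 points fall into the 2 genotypes, and a gene that is lower in each DISC1-Δ3 library by a steady amount scores high. Gm45988 went from between 5.11 and 6.54 to between 0.95 and 1.32 RPKM, and Lifr, the receptor of leukaemia inhibitory factor, from between 8.81 and 10.2 to between 4.18 and 4.76. Arhgap22 and Arhgap25 encode GTPase-activating proteins, and Dhx58 an RNA sensor of the innate immune response.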

How the data were processed

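mRNA of 6 libraries was purified with oligo(dT) and read as single ends on BGISEQ-500. The submitters' processing notes name Bowtie2 2.2.5 and mm10; the counting tool and annotation are not given in the sources used here. The authors deposited, for 18211 genes, an expected count per library (an estimate that need not be whole; 90.2% of values above 0 are whole). The deposited RPKM are, by the name and values of their columns, counts that the authors divided by transcript length and library total. The authors' 4 columns of group means were not used.

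Expected counts were rounded. Genes reaching an RPKM of 0.5 in 3 or more of the 6 libraries (13792) were tested with edgeR 4.0.16 (R 4.3.3), by its quasi-likelihood test with TMM scaling and genotype as the only term. Two-sided p-values were adjusted by Benjamini-Hochberg across the tested genes, and 0.05 was the threshold. The study names DESeq2, which was an alternative here (1.42.0), as was limma (3.58.1) on log2(RPKM + 1) and log2(RPKM + 0.1). A fold change on that scale understates the change of low genes. Others were median-of-ratios scaling, library totals, no filter, an RPKM filter of 1, the replicate block, each library left out and a log2 fold change of at least 1. Fits were tested on simulated data. Reads carry no molecular identifiers. Intervals of fold changes are 95% intervals of the fit.

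The 9 genes, the other lists, written from general knowledge, and the motifs were chosen with earlier results of these data known. Named genes are the members, list genes, Disc1 and the 5 genes closest in profile on log2(RPKM + 1). Gene spans come from GENCODE and promoters from RefSeq (GRCm38.p6); 9 of 10 member windows matched a GENCODE transcript of the gene. Some genes are not reported here.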

Additional observations from a re-analysis of the deposited data

How the results depend on the processing

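The count of members lower was 4 on library totals and 5 or 6 under each other alternative except the limit of a log2 fold change of 1. No member reached that limit (0 lower), and the count higher was 0 under each alternative. Over all genes tested, the number higher ran from 381 with the limit to 4126 on library totals. Of all tested genes, 13.3% were lower on library totals and 12.9% and 12.8% in the limma fits. Without DISC1-Δ3 replicate 3, where 6 members were lower, the share was 24%, and with the limit it was 1.06%. The 5 members in each limma fit left out Mbp and took in Opalin. Mag, Cldn11, Cnp and Mog passed the threshold in the same direction in all 14 refits. The median log2 fold change of the members, -0.32, was -0.24 on library totals, -0.20 without the filter, where Ermn enters, and -0.22 and -0.24 in limma on log2(RPKM + 1) and log2(RPKM + 0.1); with each library left out it ran from -0.38, without DISC1-Δ3 replicate 1, to -0.31. Library totals also moved the median over all genes from 0.0075 to 0.09, and the share of calls that were higher from 51.1% to 69.2%; limma gave 69.2% too. Mbp, Mobp and Opalin changed sides of the threshold as given beside each; for Mobp and Opalin in RPKM fits and single-library omissions the cause was not tested. Mal turned to -0.10 without DISC1-Δ3 replicate 3 (adjusted p = 0.358, edgeR), and ran up to 0.0764 over the other omissions. With the replicate block 5 members were lower, the median was -0.32 and Mbp was at -0.16 (adjusted p = 0.00534); same-numbered libraries had correlations of deviations of 0.0581, 0.0217 and -0.0488, so the numbers were not taken as pairs, and the block changed no member's call. Reads limit Opalin (7 to 20 a library) and Ermn (17 to 29).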
